A study of Mus musculus with 11 samples.

Results

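Globins are the protein chains of haemoglobin, and the mouse makes an embryonic and an adult set of them. The genes examined were the embryonic beta-like Hbb-y and Hbb-bh1, the embryonic alpha-like Hba-x, and the adult Hba-a1, Hbb-b1 and Hbb-b2. Every probe whose gene name on the array, or whose current symbol through its accession, is one of these 6 genes was taken, which gave 10 of 41174 distinct non-control probes. Hbb-y and Hba-x had 1 probe each, Hbb-bh1 and Hba-a1 had 2, Hbb-b1 had 4, and no probe carried the name Hbb-b2. All 10 probes passed the filter on dim spots.

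The embryonic chains belong to primitive red cells, the large first wave that arises in the yolk sac and persists in the circulation for some days, whereas the definitive red cells made in the fetal liver carry the adult chains. In both gene clusters the embryonic genes lie before the adult ones in the direction of transcription. Erythroid factors such as GATA1 and KLF1 act at the promoters and distant control regions of these clusters. The newborn liver is still a blood-forming organ, and this activity moves to spleen and bone marrow around birth.

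Liver RNA of 11 newborn mice on a hybrid 129 x C57BL/6 background was hybridised to Agilent whole mouse genome arrays in 1 colour. Controls carried the Rosa26-lsl-NICD allele alone. Mutants carried AFP-Cre and Rosa26-lsl-NICD together, so that Cre driven by the alpha-fetoprotein promoter releases NICD, the active intracellular part of the Notch receptor. Pups were taken at birth (postnatal day 0, 2 controls and 3 mutants) or on day 2 (3 controls and 3 mutants). No group carried Cre alone, so an effect of Cre and an effect of NICD cannot be told apart. The labels do not say how the pups relate to litters, so a p-value here reflects only how these samples varied.

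Arrays differed in their 75th percentile signal, from 608 to 1302, with the highest values in the day 2 mutants, at 1053 to 1302 against 794 to 975 in the day 2 controls. Arrays of a group correlated at 0.982 or more, except mutant day 0 replicate 3, which correlated at 0.951 and 0.953 with its group. Arrays of replicate number 1, 2 and 3 lie on slides 1, 2 and 3, slide 3 has no day 0 control, and the position on a slide coincides with the group, so these cannot be told apart. By sex-linked genes both controls of day 0 were male and all 3 mutants of that day female, so that sex and genotype cannot be told apart at birth, whereas either group of day 2 had 1 male. The Notch feedback inhibitor Nrarp and the duct cell factor Sox9 were read as a check of the mutant label. Over both days they were higher in mutants by 3.79 ± 0.20 and 4.30 ± 0.19 log2 units (SE, limma, adjusted p = 1.09e-05 and 5.62e-06).

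The probes decide which chain a value can stand for, so the sequences that carry the findings are given as the scanner files list them. Both Hbb-bh1 probes share the stretch in capitals and are therefore not independent readings of the gene. The Hbb-y and Hba-x probes share no aligned stretch with another globin probe. The probes were compared only with each other and not with whole globin transcripts. Whether the embryonic probes also read adult globin RNA, whose spots were far brighter, was therefore not tested.
Hbb-y A_51_P350058: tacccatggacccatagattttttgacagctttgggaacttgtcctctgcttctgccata
Hbb-bh1 A_51_P179672: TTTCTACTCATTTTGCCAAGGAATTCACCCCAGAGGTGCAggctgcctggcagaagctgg
Hbb-bh1 A_52_P305876: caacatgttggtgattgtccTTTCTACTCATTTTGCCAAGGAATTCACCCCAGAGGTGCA
Hba-x A_51_P204053: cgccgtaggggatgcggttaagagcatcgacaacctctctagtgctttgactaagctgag
On mouse build mm8 the Hbb-y probe lies on the minus strand at chr7:103726719-103726778 and the Hbb-bh1 probes at chr7:103715614-103715673 and chr7:103715634-103715693, also on the minus strand. The Hba-x probe lies on the plus strand at chr11:32177668-32177727. The 40 shared bases of the Hbb-bh1 probes were identical.

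For the adult chains the probe that never reached saturation and lay farthest from it is shown first. Below it stand an Hba-a1 probe and a probe of the array's transcript ENSMUST00000025024, whose capitals mark the stretch in which the 2 probes align.
Hbb-b1 A_51_P374468: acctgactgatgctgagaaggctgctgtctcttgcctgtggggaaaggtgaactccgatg
Hba-a1 A_52_P278538: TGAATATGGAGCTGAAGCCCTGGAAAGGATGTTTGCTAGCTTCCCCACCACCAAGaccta
ENSMUST00000025024 A_52_P33382: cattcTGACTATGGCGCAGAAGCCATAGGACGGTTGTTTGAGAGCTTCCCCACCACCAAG
The Hbb-b1 probe lies on the minus strand at chr7:103687624-103687683. The accession behind all 4 Hbb-b1 probes is now named Hbb-bt in RefSeq, and 2 of the 4, A_51_P374468 and A_52_P213909, also list the accession of Hbb-b2, so these values cannot be given to Hbb-b1 alone. The Hba-a1 probe spans chr11:32183775-32183956, 182 bases for 60 bases of probe, and the other Hba-a1 probe lies at chr11:32196744-32196803. The 2 Hba-a1 probes align over 30 bases with 27 identical, and the probe of ENSMUST00000025024 matches A_52_P278538 at 45 of 55 aligned bases. It is not one of the 10 probes and is used only as an alpha-globin-like spot far below the ceiling of the scanner.

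At birth no difference between the genotypes was found in the embryonic chains. On day 2 all 3 embryonic genes were lower in mutants, Hbb-y by 2.82-fold, Hbb-bh1 by 4.91-fold and 5.57-fold by its 2 probes, and Hba-x by a factor that is not settled, since 1 of 3 mutants was well above background. The adult chains were lower as well, by smaller factors on spots at or near the ceiling. Between birth and day 2 the embryonic chains fell in mutants, and in controls only Hbb-bh1 passed the test, though not under every setting. No globin probe passed the test of whether this change differed between the genotypes. Since whole liver was measured, fewer red cells and less globin RNA per cell cannot be told apart.

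Hbb-y encodes the epsilon-y chain, a beta-like chain of primitive red cells. Its signals, before any scaling between arrays, were 2135 and 1096 in the day 0 controls. They were 1625, 1639 and 1764 in the day 0 mutants. In the day 2 controls they were 1108, 517 and 596, and in the day 2 mutants 521, 228 and 309. The day 0 groups overlapped, and every day 2 mutant was below every day 0 mutant. Relative to the 75th percentile of each array, the log2 level of controls was 0.92 ± 0.55 at birth (SD, n = 2) and -0.30 ± 0.64 on day 2 (SD, n = 3). That of mutants was 1.12 ± 0.39 and -1.79 ± 0.44 (SD, n = 3 each). On this scale the day 2 groups did not overlap, while on the unscaled signals the highest mutant lay just above the lowest control.

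Hbb-bh1 encodes the beta-h1 chain, the other beta-like chain of primitive red cells. By probe A_51_P179672 its signals were 415 and 323 in the day 0 controls and 346, 417 and 352 in the day 0 mutants. They were 183, 127 and 200 in the day 2 controls and 73.1, 31.5 and 41.2 in the day 2 mutants. Every day 2 array was below every day 0 array, and every day 2 mutant was below every day 2 control. By probe A_52_P305876 the day 2 controls gave 169, 86.7 and 219 and the day 2 mutants 46.8, 27.0 and 35.6, again without overlap. The log2 level of controls by the first probe was -1.14 ± 0.12 at birth (SD, n = 2) and -2.36 ± 0.25 on day 2 (SD, n = 3), and that of mutants -1.06 ± 0.36 and -4.66 ± 0.46 (SD, n = 3 each). All 11 arrays were well above background for both probes.

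Hba-x encodes zeta globin, the embryonic alpha-like chain. Its signals were 331 and 177 in the day 0 controls and 222, 329 and 981 in the day 0 mutants. In the day 2 controls they were 37.4, 133 and 457, and in the day 2 mutants 10.1, 4.92 and 17.5. The array of slide 3 was the highest in each of the 3 groups that has one, and the day 2 mutants did not overlap the day 2 controls. Of the day 2 mutants only replicate 3 was well above background. The log2 level of controls was -1.74 ± 0.50 at birth (SD, n = 2) and -2.71 ± 1.68 on day 2 (SD, n = 3), and that of mutants -0.90 ± 1.44 and -6.92 ± 0.88 (SD, n = 3 each). In 3 of the 4 groups this spread was the widest of the 10 probes.

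**Figure D1:**
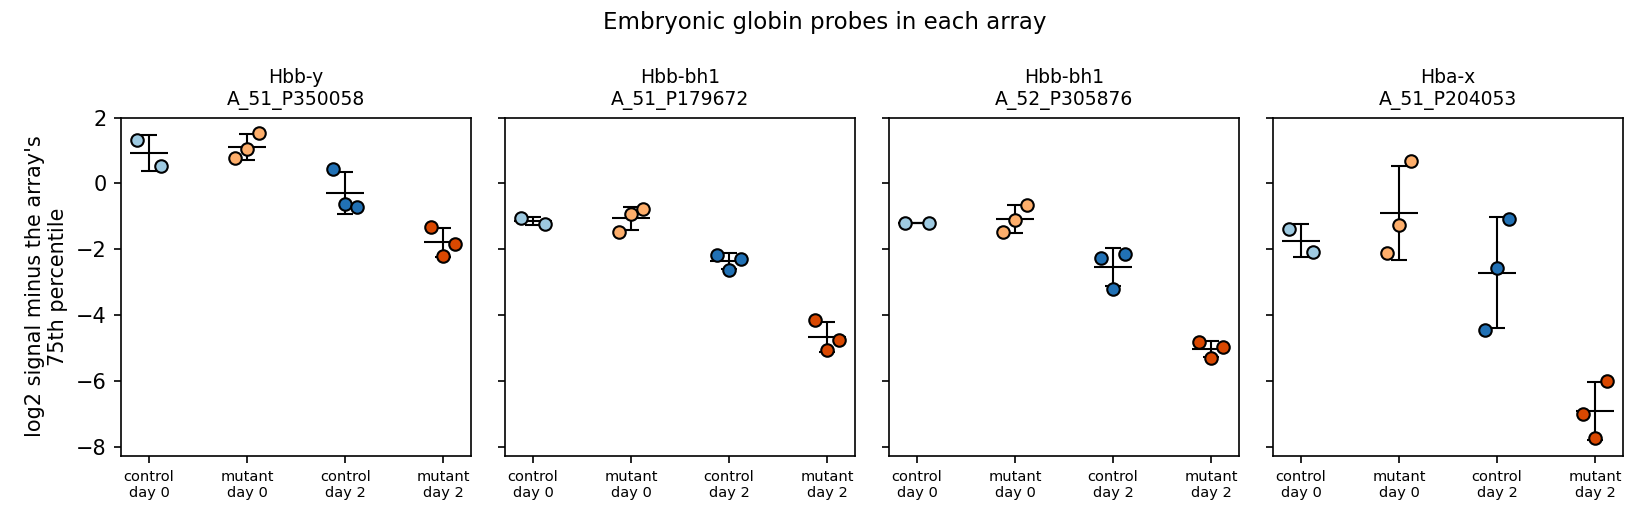
Log2 signal minus the 75th percentile of the array for the 4 embryonic globin probes, with 1 point per array in the 4 groups and a bar for the mean ± SD. The day 0 groups overlap for every probe, and the 3 day 2 mutants lie below the 3 day 2 controls for every probe.

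For Hbb-y and Hbb-bh1 the order of the groups from high to low was day 0 mutants, day 0 controls, day 2 controls and day 2 mutants. The first neighbours in that order did not differ beyond their spread. For Hba-x the order was the same, and neither the day 0 groups nor the controls of both days were separated.

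The adult chains were measured at or near the ceiling of the scanner, which stood between 650612 and 665943 signal units. Both Hba-a1 probes were marked as saturated on all 5 day 0 arrays and on 2 of 3 day 2 controls, and on none of the day 2 mutants. Of the Hbb-b1 probes, A_51_P374476 was saturated on all arrays except mutant day 2 replicates 2 and 3, and the other 3 were never marked. A saturated spot gives only a lower bound of its level, so a difference from a group with saturated spots to one without them is a lower bound of the change. Where both groups hold saturated spots, its size is not readable.

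Hbb-b1 encodes the major adult beta chain in the naming of the array. By probe A_51_P374468 the mean spot signal was 62.6% and 57.4% of the ceiling in the day 0 controls and 62.1%, 71.7% and 62.3% in the day 0 mutants. It was 54.9%, 38.0% and 41.7% in the day 2 controls and 34.1%, 17.5% and 33.3% in the day 2 mutants. The day 0 groups overlapped and the day 2 groups did not. The other 2 unsaturated probes lay between 46.0% and 91.2% of the ceiling, and on unscaled signals their day 2 groups overlapped.

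Hba-a1 encodes the adult alpha chain. By probe A_52_P278538 the mean spot signal was at 99.7% of the ceiling or above on every day 0 array. In the day 2 controls replicate 1 was at the ceiling and the others at 83.8% and 95.1%, and the day 2 mutants were at 84.0%, 52.6% and 76.9%. By probe A_52_P208681 the same control was at the ceiling, the others were at 83.9% and 98.4%, and the day 2 mutants at 77.1%, 48.9% and 76.2%. Mutant day 2 replicate 2 was the lowest array for every adult probe.

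**Figure D2:**
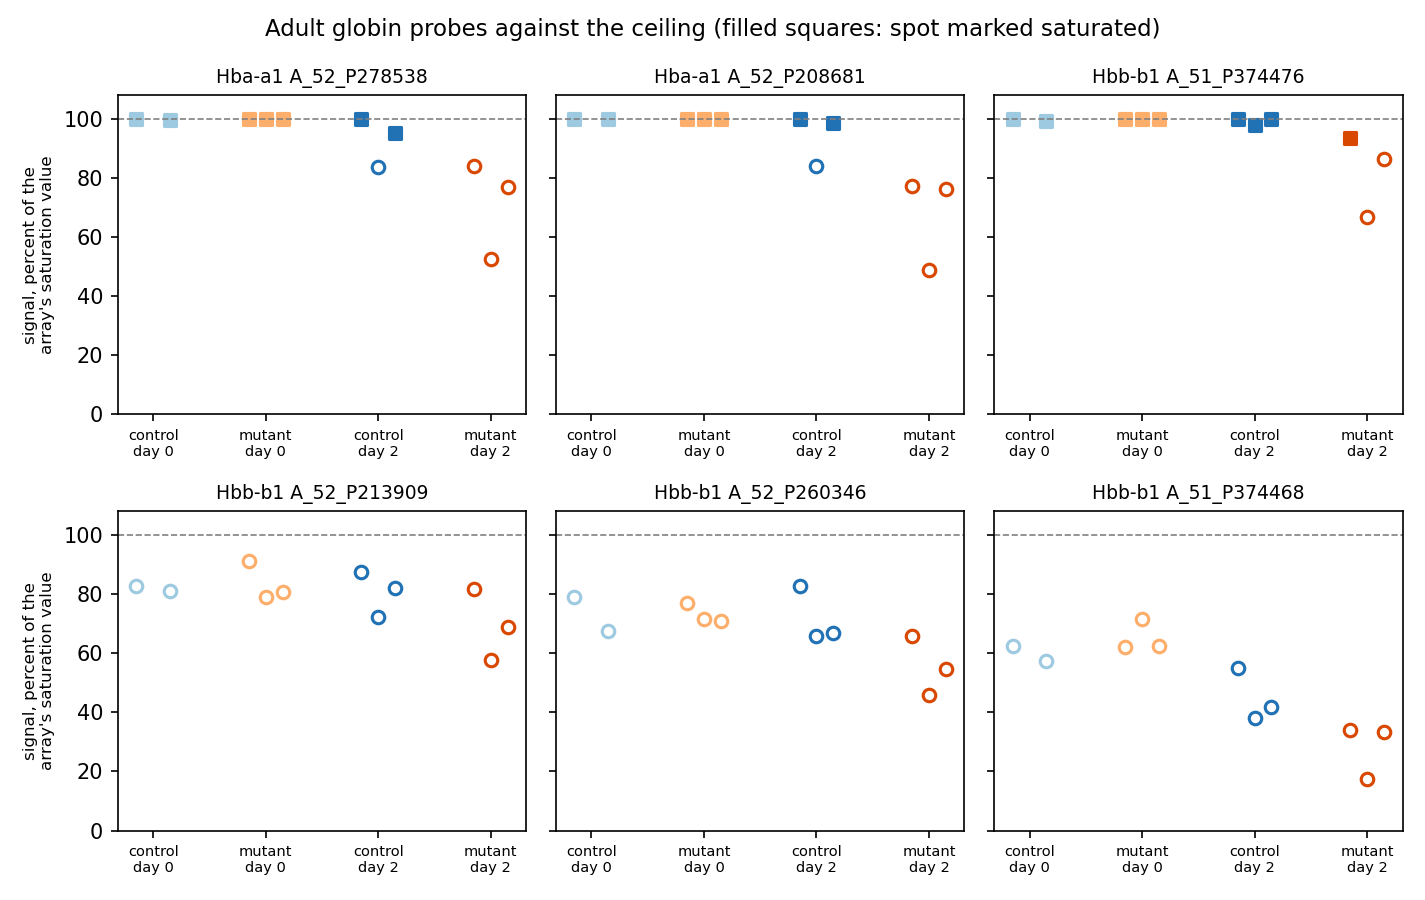
Mean spot signal of the 6 adult globin probes as a percent of the saturation value of the array (dashed line at 100), with 1 symbol per array, filled squares for spots marked saturated and open circles for the others. The day 0 arrays of both Hba-a1 probes and of A_51_P374476 sit at the ceiling, and mutant day 2 replicate 2 is the lowest array in every panel.

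The first comparison asked whether mutants and controls differ at birth, with 3 mutants and 2 controls. None of the 10 globin probes passed the threshold (limma, Benjamini-Hochberg adjusted p under 0.05), against 1.7% of all 27072 probes tested, and none had an unadjusted p under 0.05. The differences were 0.19 ± 0.42 (SE) for Hbb-y, 0.08 ± 0.30 and 0.13 ± 0.34 (SE) for the Hbb-bh1 probes and 0.84 ± 1.01 (SE) for Hba-x. For the adult probes they ran from 0.03 to 0.21, with 3 of 6 saturated in both groups and not readable as a size. The median was 0.16 over the 4 embryonic probes and -0.02 over all probes tested. Without mutant day 0 replicate 3, the Hbb-y difference was -0.02 and the Hbb-bh1 differences were -0.06 and -0.09, so their sign is not settled.

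The second comparison asked the same on day 2, with 3 animals a group. All 10 globin probes were lower in mutants past the threshold, against 4.99% of all probes tested. The 4 embryonic probes had a median difference of -2.39 and the 6 adult probes of -0.82, against -0.10 over all probes tested. In all 10 every mutant array lay below every control array, as for 23.2% of all probes.

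Hbb-y differed by -1.50 ± 0.37 (SE, limma, adjusted p = 0.029), and the call was lost without control day 2 replicate 1 or 2 or mutant day 2 replicate 2 or 3 (adjusted p = 0.0909, 0.0507, 0.111 and 0.0839). Hbb-bh1 differed by -2.29 ± 0.27 (SE, adjusted p = 0.000632) and -2.48 ± 0.30 (SE, adjusted p = 0.000845). Within slides 1, 2 and 3 the second Hbb-bh1 probe, A_52_P305876, differed by -2.53, -2.09 and -2.81. Both Hbb-bh1 probes passed under every other setting they were fitted in, with adjusted p from 0.000455 to 0.00572. After normexp background treatment, which adds 50 units to each spot, they differed by -1.43 and -1.51.

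Hba-x differed by -4.21 ± 0.91 (SE, limma, adjusted p = 0.0152), and by -2.57, -5.16 and -4.90 within slides 1, 2 and 3. The fitted 18.5-fold rests on mutant signals of 4.92 to 17.5, of which 1 of 3 was well above background, and the probe was tested only because the other groups were above it. After normexp treatment the difference was -1.94 and did not pass (adjusted p = 0.0638), and it was -2.43 in the authors' deposited values (adjusted p = 0.089). The call was also lost without control day 2 replicate 2 or mutant day 2 replicate 1 or 2 (adjusted p = 0.0511, 0.0515 and 0.0652).

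Among the adult probes, A_51_P374468 of Hbb-b1, the one farthest from the ceiling, differed by -1.14 ± 0.27 (SE, limma, adjusted p = 0.0228), a 2.20-fold lower level. The other unsaturated Hbb-b1 probes, A_52_P213909 and A_52_P260346, differed by -0.66 and -0.80 (adjusted p = 0.0397 and 0.0242). A_51_P374476 differed by -0.72 ± 0.21 (SE, adjusted p = 0.04999), but all 3 controls and 1 mutant were saturated, so this is neither the size of the change nor a bound of it. The Hba-a1 probes differed by -0.94 ± 0.20 and -0.84 ± 0.21 (SE, adjusted p = 0.0157 and 0.028). With 2 of 3 controls saturated and no mutant, these sizes are lower bounds, and the SE rests in part on spots at the ceiling. On unscaled signals the 6 adult probes differed by -0.23 to -0.71, since the 75th percentile itself was 0.42 log2 units higher in the day 2 mutants, and 4 of the 6 did not overlap.

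The adult calls varied with the scaling and with single arrays. After quantile normalization 0 of 6 adult probes and all 4 embryonic probes passed. This method makes the distribution of values alike on all arrays, so spots that stay among the brightest can change little. Of the probes in the authors' deposited values, 3 of 4 embryonic and 0 of 3 adult ones passed. There A_52_P213909 stood at 19.129 on both day 0 controls, mutant day 0 replicate 1 and control day 2 replicate 1. The adult calls lost in these 2 settings therefore do not show an absence of change. With the replicate number, which is the slide, as a block, A_51_P374476 and A_52_P213909 no longer passed (adjusted p = 0.0549 and 0.0564) and 8 of 10 calls remained. Of 10 globin probes 3 passed without control day 2 replicate 1 or 2. Leaving out mutant day 2 replicate 1, 2 or 3 left 4, 2 and 6 calls. Both Hbb-bh1 probes were among the calls each time.

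The probe of ENSMUST00000025024 gave signals of 6208, 2841 and 2841 in the day 2 controls and 2529, 809 and 1802 in the day 2 mutants, at most 0.913% of the ceiling. It differed by -1.68 ± 0.43 (SE, limma, adjusted p = 0.0313) and its day 2 groups did not overlap. Its match to the Hba-a1 probe is partial, and which transcript it reads was not tested.

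**Figure D3:**
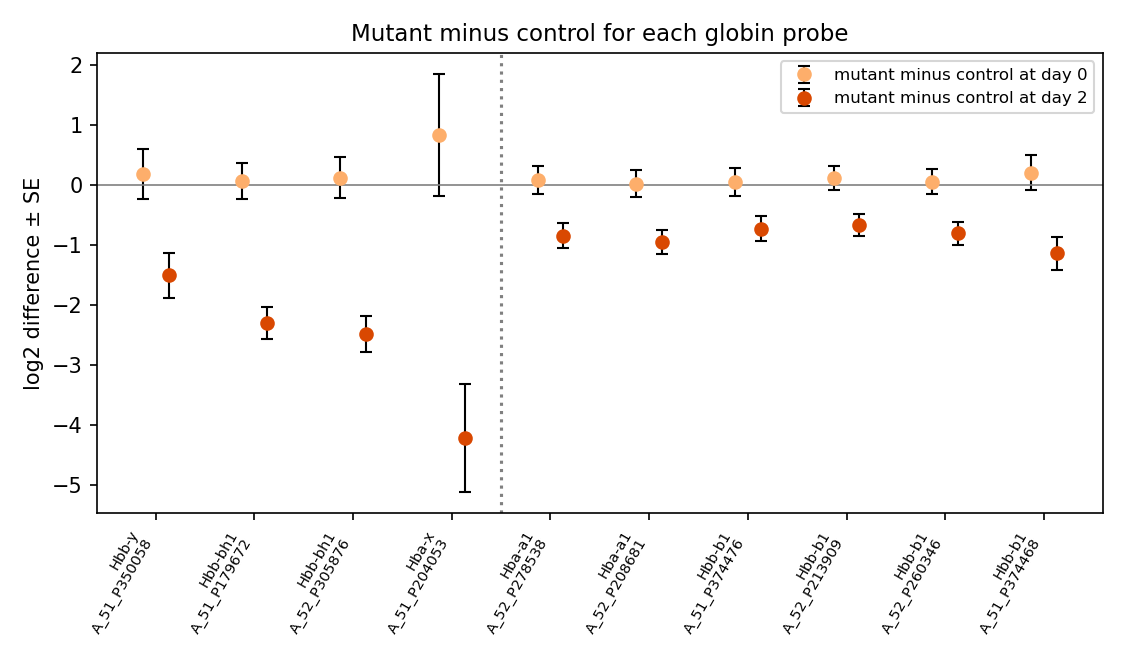
Difference in log2 signal between mutants and controls (± SE of the fit) for the 10 globin probes at day 0 (3 mutants, 2 controls) and day 2 (3 of each), with embryonic probes left of the dotted line and adult probes right of it. At day 0 every difference is within 1 SE of 0, and on day 2 the differences run from -4.21 for Hba-x to -0.66 for an Hbb-b1 probe.

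The third comparison took both days with equal weight. Of the 10 probes the 2 of Hbb-bh1 were lower, with differences of -1.11 ± 0.20 and -1.17 ± 0.23 (SE, limma, adjusted p = 0.00644 and 0.00895), against 5.29% of all probes lower. Hbb-y differed by -0.65 ± 0.28 (SE, adjusted p = 0.171). With the replicate block Hba-x passed as well, at -2.03 (adjusted p = 0.0178). With pup sex as a covariate no globin probe passed, and the Hbb-bh1 differences were -0.89 and -0.95 (adjusted p = 0.0606 and 0.0798). Without mutant day 0 replicate 3, 8 of 10 passed.

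Whether the difference between the genotypes itself changed from birth to day 2 was tested as an interaction. No globin probe passed it, and 0.196% of all probes did. The values were -2.37 ± 0.40 and -2.60 ± 0.45 for Hbb-bh1 (SE, limma, adjusted p = 0.0611 and 0.0625), -1.69 ± 0.56 for Hbb-y (SE, adjusted p = 0.265) and -5.05 ± 1.36 for Hba-x (SE, adjusted p = 0.191). Unadjusted p was under 0.05 for all 10. Probe A_51_P179672 passed without replicate 1 of the day 0 mutants (adjusted p = 0.0396), and both Hbb-bh1 probes did without replicate 3 of that group (adjusted p = 0.0487). The genotype difference is therefore not shown to differ between the days.

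The fourth comparison followed the chains from birth to day 2 in each genotype. In controls, 3 against 2 animals, Hbb-bh1 changed by -1.22 ± 0.30 and -1.34 ± 0.34 log2 units (SE, limma, adjusted p = 0.0346 and 0.0387), 2 of 10 probes against 5.18% of all probes. Hbb-y differed by -1.22 ± 0.42 (SE, adjusted p = 0.0953), without overlap between the days on the scaled values, as for 28.1% of all probes. Before scaling the days overlapped, with 1108 in 1 day 2 control and 1096 in 1 day 0 control. Hba-x differed by -0.97 ± 1.01 (SE, adjusted p = 0.57). The adult probes differed by -0.06 to -0.51, with none past the threshold. Of these, A_51_P374476 was saturated on every control array. Both Hba-a1 probes were saturated on every day 0 control and on 2 of 3 day 2 controls. The sizes of these saturated probes are not readable. Neither Hbb-bh1 call held after quantile normalization or median scaling, with no filter on dim spots, with sex in the model, or without control day 0 replicate 1 or 2, control day 2 replicate 2 or mutant day 2 replicate 3. With the replicate block 1 of the 2 remained, and A_51_P179672 did not pass (adjusted p = 0.0533).

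In mutants all 10 probes were lower on day 2 than at birth, against 10.8% of all probes, and none overlapped, as for 21.8% of all probes. Hbb-y fell by 2.91 ± 0.37 (SE, limma, adjusted p = 0.00218). The Hbb-bh1 probes differed by -3.60 ± 0.27 and -3.94 ± 0.30 (SE, adjusted p = 0.000217 and 0.000244), and by -2.49 and -2.68 after normexp treatment. Hba-x differed by -6.02 ± 0.91 (SE, adjusted p = 0.004), again with 1 of 3 day 2 mutants well above background, by -3.26 after normexp treatment and by -3.97 in the authors' deposited values. These calls held, and the sizes depend on how the dim spots are treated. Probe A_51_P374468 of Hbb-b1 fell by 1.86 ± 0.27 (SE, adjusted p = 0.00344), and the Hba-a1 probes, saturated on every day 0 array, had lower bounds of 2.30-fold and 2.13-fold on their fall. This comparison shares its day 2 mutants with the second comparison, so the 2 are not independent.

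To set embryonic against adult chains, the log2 level of each embryonic gene was taken minus that of A_51_P374468 on the same array, then relative to the mean of the day 0 controls. This removes the scaling between arrays. It is a description only, and whether the adult signal is linear this near the ceiling was not tested. For Hbb-bh1, averaged over its probes, the values were -0.04, -0.21 and -0.08 in the day 0 mutants, -0.83, -1.18 and -0.32 in the day 2 controls and -1.72, -1.92 and -2.43 in the day 2 mutants. All 3 day 2 mutants lay below all day 2 controls, and the day 0 groups lay close together.

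For Hbb-y the same quantity was -0.71 ± 0.39 in controls and -1.07 ± 0.43 in mutants of day 2 (SD, n = 3 each), and these groups overlapped. For Hba-x it was -0.46 ± 1.94 and -3.54 ± 0.48 (SD, n = 3 each), without overlap. Hbb-bh1 and Hba-x therefore were lower relative to the adult beta probe in every day 2 mutant, and Hbb-y was not separated. For Hba-x the size is not settled, since 1 of 3 day 2 mutants was well above background. Over all 4 embryonic and all 6 adult probes the mean in day 2 controls was -0.99 ± 0.51 (SD, n = 3). In day 2 mutants it was -2.76 ± 0.23 (SD, n = 3), a difference of -1.77 that includes the dim Hba-x spots. With only the never saturated adult probes that difference was -1.75, in the authors' deposited values it was -1.49, and after normexp treatment it was -0.73.

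**Figure D4:**
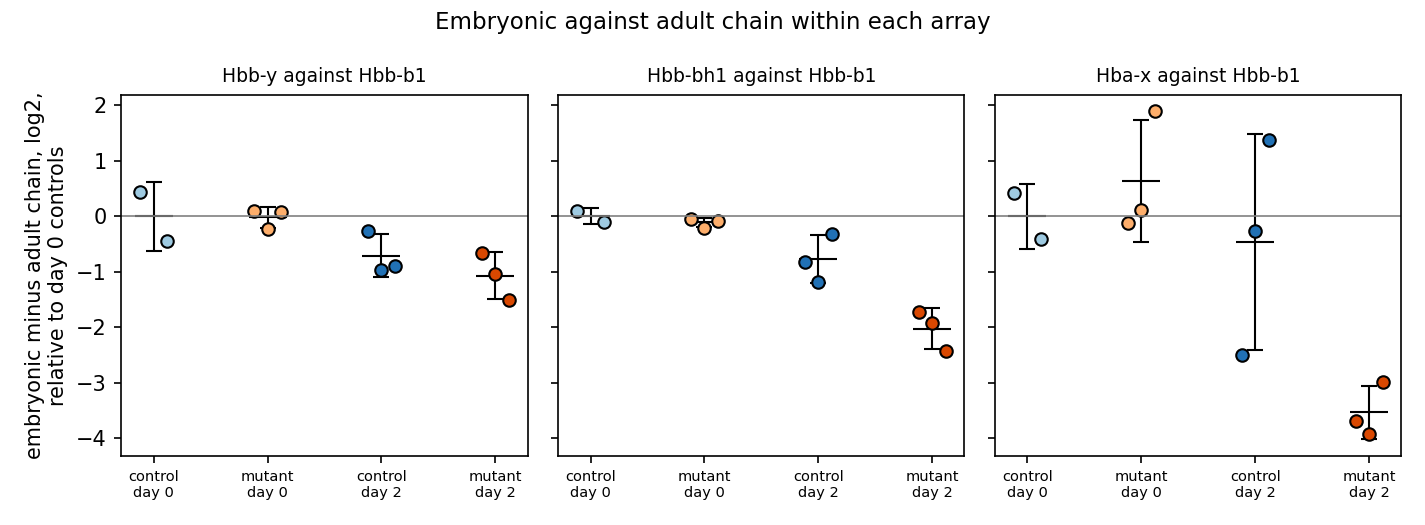
Log2 level of each embryonic chain minus that of the Hbb-b1 probe A_51_P374468 on the same array, relative to the mean of the day 0 controls, with 1 point per array and a bar for the mean ± SD. The day 2 mutants lie below the day 2 controls for Hbb-bh1 and Hba-x and overlap them for Hbb-y.

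The other genes of the red cell programme were read from lists of textbook genes of each process, each gene from its brightest tested probe. Over 4 lists of 53 tested genes, on transcription factors, heme, membrane and late red cell proteins, none passed at birth (median difference -0.42) and 33 were lower and 0 higher on day 2 (median -1.14), against 4.99% of all probes lower. Of these 53 genes 14 passed without control day 2 replicate 1, 20 without control day 2 replicate 2, 22, 15 and 22 without mutant day 2 replicate 1, 2 and 3, 17 after quantile normalization, 18 in the authors' table and 49 without mutant day 0 replicate 3.

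Of 9 erythroid transcription factors 5 were lower on day 2. Gata1, the main activator of globin genes, was lower in mutants than in controls by 1.54 ± 0.22 log2 units (SE, limma, adjusted p = 0.00215). Nfe2, which binds the beta-globin control region, was lower by 1.19 ± 0.19 (SE, adjusted p = 0.00315). Gfi1b, a repressor needed for red cell maturation, and Lmo2, a bridging protein of the GATA1 complex, were lower by 1.19 and 1.20. Klf1, the activator of adult beta globin, differed by -1.64 ± 0.65 (SE, adjusted p = 0.132).

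Of 15 genes of heme synthesis and its iron supply 9 were lower on day 2. Cpox and Uros, enzymes of the pathway, differed by -1.13 ± 0.20 and -1.09 ± 0.27 log2 units (SE, limma, adjusted p = 0.00597 and 0.0268). Alas2, the erythroid form of the first enzyme, was lower in mutants by 1.28 ± 0.31 (SE, adjusted p = 0.0237). Tfrc, the transferrin receptor, differed by -1.26 ± 0.37 (SE, adjusted p = 0.0526).

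Of 17 genes of the red cell membrane and skeleton 13 were lower on day 2. Sptb, the erythroid beta spectrin, was lower in mutants by 1.47 ± 0.20 log2 units (SE, limma, adjusted p = 0.00163). Gypc and Icam4, surface glycoproteins, differed by -1.43 ± 0.26 and -1.60 ± 0.31, and Add2, an adducin of the skeleton, by -1.10 ± 0.21 (SE, adjusted p = 0.00719, 0.00984 and 0.00767).

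Of 12 tested genes that serve globin or mark late red cells 6 were lower on day 2. The carbonic anhydrase Car2 was lower in mutants by 1.38 ± 0.32 log2 units (SE, limma, adjusted p = 0.0207). The peroxide scavengers Prdx2 and Cat were lower by 0.97 ± 0.19 and 0.76 ± 0.15 (SE, adjusted p = 0.0109 and 0.00935). Cd24a, a surface protein of erythroblasts, was lower by 0.96.

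Regulators of the switch between embryonic and adult globins moved less uniformly, and their list had a median of -0.57 on day 2. Of 16 genes 2 were lower on day 2 and none higher, against 4.99% and 8.09% of all probes. The 2 lower genes were Zbtb7a and the DNA methyltransferase Dnmt1, by 0.56 and 0.59 log2 units (named after their values were seen). Over both days 2 were lower and 2 higher, against 5.29% and 7.3% of all probes. Bcl11a, a repressor of embryonic beta-like genes, was lower in mutants by 1.01 ± 0.24 (SE, limma, adjusted p = 0.0238). Myb, a factor of erythroid progenitors, was lower by 0.52 ± 0.15 (SE, adjusted p = 0.0469). Igf2bp1, an RNA-binding protein of fetal cells, was higher by 1.39 ± 0.31, and the demethylase Kdm1a by 0.64 ± 0.13 (SE, adjusted p = 0.0178 and 0.0121).

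Of 10 other globin genes 4 were tested apart from the 10 probes. On day 2 the theta-globin genes Hbq1a and Hbq1b of the alpha cluster were lower in mutants by 1.41 ± 0.41 and 1.46 ± 0.37 log2 units (SE, limma, adjusted p = 0.0491 and 0.031). How far their probes tell these related genes apart was not tested. Cytoglobin, Cygb, a globin of fibroblast-like cells, was higher in mutants by 1.12 ± 0.28 (SE, adjusted p = 0.0293). Ngb, neuroglobin, differed by -1.95 ± 0.74 (SE, adjusted p = 0.127).

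Of 11 genes that clear haemoglobin and heme 2 were lower on day 2, against 4.99% of all probes. Hp was lower by 0.56 and Lrp1 by 0.70 log2 units (limma, adjusted p = 0.0404 and 0.0413). Hp encodes haptoglobin, which binds free haemoglobin. Hpx, hemopexin, differed by -0.47 (adjusted p = 0.111).

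**Figure D5:**
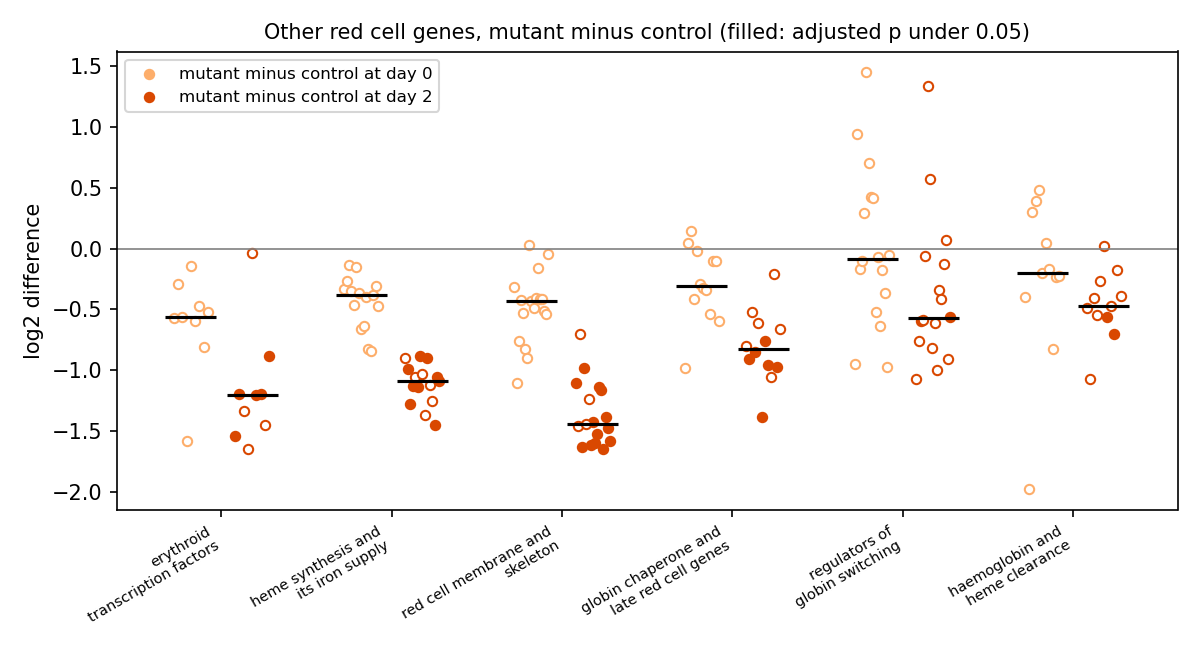
Difference in log2 signal between mutants and controls for each tested gene of 6 lists at day 0 and day 2, with filled points for an adjusted p under 0.05 and a bar for the median. On day 2 the medians of the first 4 lists run from -0.82 to -1.44, and at day 0 no point is filled.

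Markers of other liver cells moved as well, and their part in the globin results was not tested. Summed over 4 unsaturated hepatocyte genes, the level relative to the 75th percentile was 1164 to 1459 in day 2 controls and 838 to 875 in day 2 mutants, and 3 of 7 tested genes were lower. The 6 bile duct genes summed to 9.26 to 16.8 and 221 to 266, and all 6 were higher, against 8.09% of all probes. Megakaryocyte genes, 8 in number, summed to 83.0 to 92.4 and 43.2 to 48.2 with none past the threshold. Macrophage genes, 10 in number, summed to 118 to 131 and 96.2 to 148 with 2 lower, and granulocyte genes, 9 in number, to 433 to 502 and 343 to 367 with none past it. Of 8 stellate and portal fibroblast genes 2 were higher, of 7 endothelial genes 1 was lower, and of 7 lymphoid genes none passed. For all these counts the shares over all probes were 4.99% lower and 8.09% higher.

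Over the 11 arrays, the genes whose pattern was most like that of each embryonic chain were found by the root mean square difference of mean-centred log2 values among 23781 unsaturated probes with a gene symbol. For Hbb-y they were H2-T24 (0.198), Hbq1b (0.217), Fibp (0.25), Chrdl1 (0.282) and Ifi27l2a (0.318), against 0.432 for Hbb-bh1 itself. For Hbb-bh1 they were Ifi205 (0.336), Rsad2 (0.354), Chrdl1 (0.396), H2-T24 (0.444) and Ifi27 (0.473), with 0.241 between its own 2 probes. For Hba-x the nearest was Ppp1r3c at 1.21. The distance grows with the range of the chain, which was 8.43 log2 units for Hba-x, 3.74 for Hbb-y and 4.28 for Hbb-bh1. The range of Hba-x includes day 2 mutant spots not well above background. Its distances are therefore not comparable with those of the other chains. The likeness is a description over arrays that share groups and slides.

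Since the embryonic chains were lower together on day 2, the 250 bases before the start of 2 of them are given from RefSeq (GRCm38.p6, 5' to 3' along the gene). Capitals mark a CACCC or CCAAT word or a GATA word (A or T, then GATA, then A or G), each searched on both strands.
Hbb-y chr7:103853208-103853457, minus strand: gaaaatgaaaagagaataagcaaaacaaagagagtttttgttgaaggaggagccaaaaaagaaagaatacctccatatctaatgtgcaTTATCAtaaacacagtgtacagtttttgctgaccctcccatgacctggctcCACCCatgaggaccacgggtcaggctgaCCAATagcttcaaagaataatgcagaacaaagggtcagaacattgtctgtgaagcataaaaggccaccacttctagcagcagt
Hba-x chr11:32276350-32276599, plus strand: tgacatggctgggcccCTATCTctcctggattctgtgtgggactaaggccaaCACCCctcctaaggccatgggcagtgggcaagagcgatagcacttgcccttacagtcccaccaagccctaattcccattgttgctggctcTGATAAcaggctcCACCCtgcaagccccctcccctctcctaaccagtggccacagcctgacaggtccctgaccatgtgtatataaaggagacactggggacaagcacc
Hbb-y held 1 GATA, 1 CACCC and 1 CCAAT word and Hba-x 2, 2 and 0. In the same window Hba-a1 held 1, 2 and 1, and Hbb-bt, the current name behind the Hbb-b1 probes, held 0, 3 and 3. Of 32851 promoters of this length 26.5% hold the GATA word, 52% CACCC and 33.8% CCAAT, so each word alone is common. A match is not a site of binding, and Hbb-bh1 was not in the table.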

How the data were processed

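The deposited file of each array holds, per the file headers, spot intensity and a processed signal made with Agilent Feature Extraction 9.5.3.1, background-subtracted and detrended within the array but not scaled between arrays. A second source, log2 values deposited for the series and made with RMA per the submitters' processing notes, has 7 of the 10 globin probes and served as an alternative. Here each processed signal was put on the log2 scale and set against its array's 75th percentile, taken over non-control spots. Testing required that some group had the probe well above background on all its arrays (27072 of 41174). Each group had its own mean in limma 3.58.1 (R 4.3.3), where the residual degrees of freedom were 7 and the prior ones 2.54, and Benjamini-Hochberg adjustment ran over every probe tested. The script was tested on simulated data. Same-numbered day 2 arrays lie on 1 slide, and their deviations from the group means correlated at 0.278, 0.208 and 0.262 (others -0.226 to -0.031). Centring within such small groups pushes the others below 0. At day 0 the same-numbered pairs gave 0.048 and 0.089 (others -0.089 to 0.027). The numbers were taken to pair the arrays only in the setting with the replicate block, and the main fit did not use this pairing.

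The probes, gene lists and tests were chosen with earlier results of these data known. Named were all globin probes, from each list the 4 genes with the smallest p over both days, and the 5 genes most alike in pattern. One gene that this rule names is not reported here. The genes Alas2, Klf1, Hp, Zbtb7a and Dnmt1 lie outside this rule and were chosen after their values were seen. Sequences came from the scanner files and RefSeq.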

Additional observations from a re-analysis of the deposited data

How the results depend on the processing

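Of 10 globin probes lower in mutants on day 2, 4 passed after quantile normalization, 3 of 7 in the authors' deposited values and 9 after normexp treatment, and 5 of 5 did with 1 probe per gene. That setting took the brightest probe of each gene. For the adult genes these were A_51_P374476 and A_52_P278538, both with saturated spots, so their calls there add little. Leaving out single arrays gave 2 to 10. Both Hbb-bh1 probes passed in all of the 22 and 21 other settings they were fitted in. Over both days 1 passed with 1 probe per gene and 0 with sex in the model, and 2 to 8 without single arrays. From birth to day 2 in controls, 0 passed after quantile normalization, after median scaling, with no filter on dim spots and with sex in the model. In the same comparison 1 passed in the authors' values, with 1 probe per gene, with the replicate block and with only the groups compared, and 0 to 2 without single arrays. In mutants 5 passed after quantile normalization, 5 of 7 in the authors' values and 5 of 5 with 1 probe per gene. As said above, quantile normalization can show little change for the brightest spots, which the adult probes are. The test of the difference between days gave 0 to 2 without single arrays. The embryonic minus adult difference moved to -0.73 after normexp treatment. With the replicate block 8 of 10 passed on day 2, 3 over both days and 10 in mutants, and the calls it changed are given above.

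Signs that turned were all of differences that did not pass. At birth, quantile normalization gave -0.030 for A_51_P374476, -0.0074 for A_52_P213909, -0.070 for A_52_P260346 and -0.036 for A_52_P208681. The authors' values gave -0.066 for A_52_P213909 and -0.0097 for A_52_P260346. The replicate block gave -0.018 for A_52_P305876, -0.017 for A_51_P374476 and -0.029 for A_52_P208681, and sex in the model -0.084 for A_51_P374476 and -0.054 for A_52_P260346. Without single arrays the range at birth was -0.19 to 0.58 for Hbb-y, -0.059 to 0.28 and -0.090 to 0.33 for Hbb-bh1, -0.14 to 0.26 for A_51_P374476, -0.066 to 0.26 for A_52_P213909, -0.077 to 0.17 for A_52_P260346, -0.12 to 0.14 for A_52_P208681 and -0.10 to 0.26 for A_52_P278538. In controls, quantile normalization gave 0.023 for A_51_P374476 and 0.025 for A_52_P213909. Median scaling gave 0.11 for A_51_P374476, 0.14 for A_52_P213909, 0.070 for A_52_P260346 and 0.032 for A_52_P278538. Without single arrays the control ranges were -0.21 to 0.037, -0.17 to 0.046 and -0.29 to 0.0097 for A_51_P374476, A_52_P213909 and A_52_P260346. Median scaling shifted the median of all probes by 0.20 in controls and 0.18 in mutants from birth to day 2, and normexp treatment by -0.12 in mutants and -0.10 in the difference between days. The share of calls that were lower was 38.2% on day 2 and 49.1% after normexp treatment. At birth it was 27.6% and 38.3%. In controls it was 54.5%, and 29.8% after median scaling. In mutants it was 56.7%, and 68.6% after normexp treatment, 39.3% after median scaling and 45.4% in the authors' values. The cause of these changes was not tested. The number of arrays and the saturation of the adult spots limit the precision. Red cell gene counts under each setting were added after seeing the data.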
